A study of Arabidopsis thaliana with 9 samples.

Results

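Expansins are small secreted proteins that loosen plant cell walls at acid pH without cutting the wall polymers, so that a cell under turgor can extend. The alpha-expansins, named EXPA, are the largest branch of the superfamily, beside the beta-expansins (EXPB) and the expansin-like genes (EXLA and EXLB). In darkness an Arabidopsis seedling etiolates: the hypocotyl lengthens by cell expansion while the cotyledons stay closed, and seedlings that lack COP1 function stay short and open their cotyledons in the dark. Described here are 4 alpha-expansins, EXPA4 (AT2G39700), EXPA8 (AT2G40610), EXPA9 (AT5G02260) and EXPA20 (AT4G38210). Each has 1 probe set, and they are 4 of the 13513 probe sets that the annotation assigns to a single gene and 4 of 18 expansins measured by such a probe set. The root hair expansins EXPA7 and EXPA18 were left out of the group. The 4 genes were selected by name, on signals already known to be lower in cop1-4 than in wild type, so that comparison is given for them as a description without a test. Their name as expansins of seedling elongation was not checked by these data, which hold no measure of length and no separate organs.

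RNA came from whole seedlings of Arabidopsis thaliana, all of the Col-0 ecotype, kept in the dark until they were 4 days old. The 3 genotypes were cop1-4BBX22-GFPox, cop1-4 and wild type, with 3 biological replicates each, 1 single-colour Affymetrix array per replicate and 9 arrays in all. COP1 encodes the substrate-binding part of a ubiquitin ligase that removes light-promoting transcription factors in darkness, and cop1-4 is a viable mutant allele of it. The cop1-4BBX22-GFPox seedlings carry cop1-4 too, with a construct that the label describes only as BBX22-GFPox, and BBX22 belongs to the B-box transcription factors and favours light responses. The sources used here give neither the promoter of the construct nor the number of lines behind it, and the transcripts of COP1 and BBX22 were not analysed here. Nothing says that replicates were sown separately, so p-values cover only the spread between these samples, which may be technical.

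Median signals of the arrays lay between 158.8 and 184.0 in cop1-4BBX22-GFPox, between 147.2 and 184.0 in cop1-4 and between 172.4 and 189.4 in wild type. Replicate 1 stood apart in every genotype. Across the 15922 probe sets tested, replicates 2 and 3 of one genotype correlated at 0.982 to 0.989, whereas replicate 1 correlated with them at 0.842 to 0.845 in cop1-4BBX22-GFPox, at 0.816 to 0.819 in cop1-4 and at 0.921 to 0.926 in wild type. Results are therefore also given for replicates 2 and 3 alone. All values are probe set signals in the arbitrary units of the arrays, and the levels of different genes are not ranked against each other. Log2 changes are differences of log2(signal + 24.5).

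EXPA8 had the largest difference of the 4 between cop1-4BBX22-GFPox and wild type, and its lowest level in cop1-4BBX22-GFPox. Its signal was 249.8, 444.5 and 461.8 in replicates 1 to 3 of cop1-4BBX22-GFPox, 313.6, 1883.4 and 1790.1 in those of cop1-4, and 4156.0, 4407.5 and 4548.4 in those of wild type. The wild type arrays were close together and above all 6 others, and those of cop1-4BBX22-GFPox and cop1-4 overlapped only through replicate 1 of cop1-4, which was far below the other two. Mean signals were 385.4 ± 117.7 in cop1-4BBX22-GFPox, 1329.0 ± 880.6 in cop1-4 and 4370.6 ± 198.8 in wild type (SD, n = 3 each).

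EXPA9 had similar signals in both mutant genotypes. Its signal was 446.2, 468.2 and 456.8 in cop1-4BBX22-GFPox, 411.5, 462.5 and 581.4 in cop1-4, and 2789.0, 3577.2 and 3610.3 in wild type. The cop1-4BBX22-GFPox arrays lay inside the range of cop1-4, and wild type lay far above both. The means were 457.1 ± 11, 485.1 ± 87.2 and 3325.5 ± 464.9 in the same order (SD, n = 3 each). Replicate 1 differed less from replicates 2 and 3 for EXPA9 than for EXPA8, with a highest signal 1.41 times the lowest in cop1-4, against 6.01 times for EXPA8.

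EXPA4 was lowest in cop1-4 by its mean. Its signal was 319.1, 825.1 and 904.0 in cop1-4BBX22-GFPox, 380.9, 545.2 and 515.5 in cop1-4, and 1808.2, 2554.1 and 2017.4 in wild type. Replicates 2 and 3 of cop1-4BBX22-GFPox lay above every cop1-4 array, while replicate 1 lay below every cop1-4 array, so these genotypes overlapped, and wild type again lay above both. The means were 682.7 ± 317.4 in cop1-4BBX22-GFPox, 480.5 ± 87.6 in cop1-4 and 2126.6 ± 384.7 in wild type (SD, n = 3 each).

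EXPA20 had the smallest differences from wild type of the 4. Its signal was 86.0, 140.8 and 113.1 in cop1-4BBX22-GFPox, 77.9, 127.5 and 147.4 in cop1-4, and 207.4, 376.8 and 294.5 in wild type. The range of cop1-4BBX22-GFPox lay within that of cop1-4, and the wild type arrays lay above both without overlap. The means were 113.3 ± 27.4, 117.6 ± 35.8 and 292.9 ± 84.7 in the same order (SD, n = 3 each). All 4 genes passed the filter, a mean log2 value of 6.24 over the 9 arrays, and each would have passed it on the mean of any 1 genotype.

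**Figure D1:**
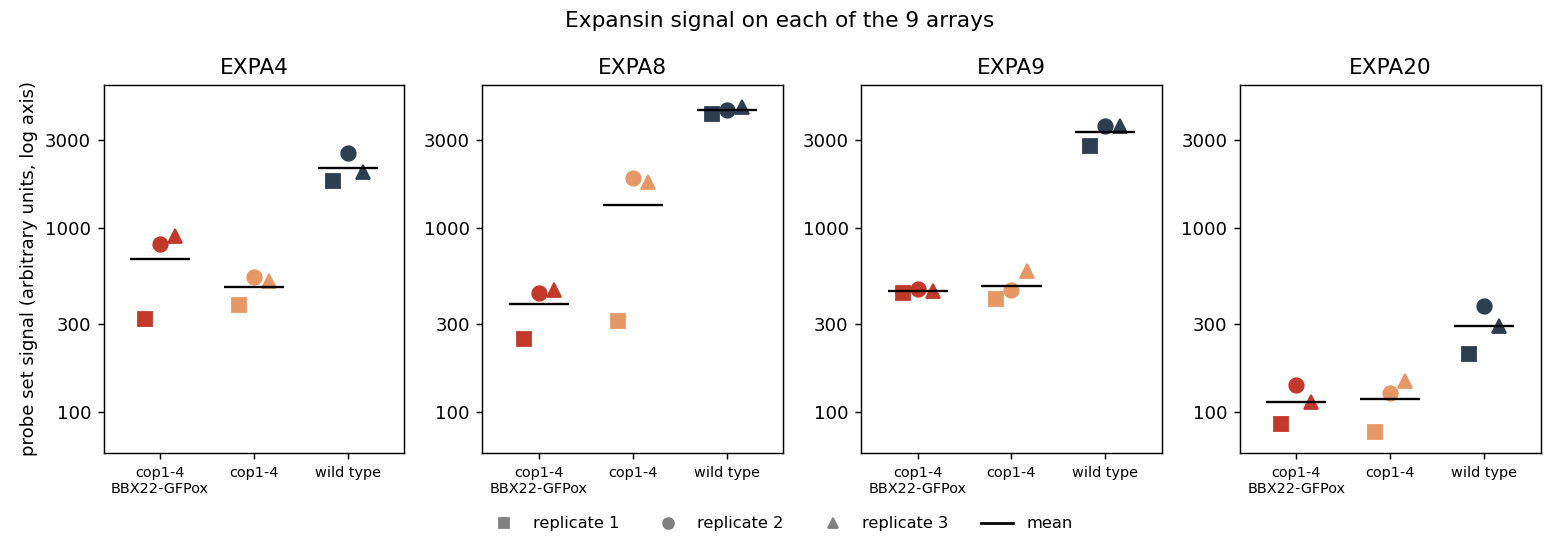
Signal of the 4 expansins on each of the 9 arrays (arbitrary units, log axis), with the genotypes on the horizontal axis, symbols for the replicate number and a line at the mean of 3 arrays. For each gene the 3 wild type arrays lie above the 6 others, and the square of replicate 1 of cop1-4 EXPA8, at 313.6, lies far below the 1883.4 and 1790.1 of replicates 2 and 3.

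The order of the mean levels differed among the genes in its lower part. Wild type was highest for all 4. Below it, cop1-4 came next for EXPA8, EXPA9 and EXPA20, and cop1-4BBX22-GFPox came next for EXPA4. The lower neighbours in these orders overlapped in signal for all 4 genes.

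The comparison of cop1-4BBX22-GFPox with cop1-4 asks what the construct changed in the mutant background. The members were not selected on it, though it shares the cop1-4 arrays with the comparison that they were selected on. Over all 9 arrays limma called 0 of the 4 (2 in replicates 2 and 3 alone and with array weights), where 0.301% of all probe sets were called in either direction, and EXPA8 alone had an unadjusted p below 0.05, at 0.0451. The log2 change of EXPA8 was −1.41 (SE 0.60, 95% interval −2.78 to −0.04, limma adjusted p = 0.64), and its mean signal was 3.45-fold lower with the construct. EXPA4 stood at 0.37 (SE 0.38, −0.48 to 1.22, limma adjusted p = 0.999). EXPA9 stood at −0.07 (SE 0.20, −0.53 to 0.39, limma adjusted p = 0.999). EXPA20 stood at −0.03 (SE 0.29, −0.68 to 0.62, limma adjusted p = 0.999). The intervals leave room for a change of EXPA9 by up to about 0.53 on the log2 scale and for much larger ones of EXPA8 and EXPA4. Exact two-sided permutation tests of 3 arrays against 3, which cannot give a p below 0.1, gave p = 0.3 for EXPA8, p = 0.5 for EXPA4, p = 0.8 for EXPA9 and p = 0.9 for EXPA20.

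Split by replicate number, EXPA8 and EXPA4 moved in opposite directions in replicates 2 and 3. Between arrays of the same number, EXPA8 differed by −0.30, −2.02 and −1.90 on the log2 scale in replicates 1 to 3, lower with the construct in 3 of 3. EXPA4 differed by −0.24, 0.58 and 0.78, higher in 2 of 3. EXPA9 differed by 0.11, 0.02 and −0.33, and EXPA20 by 0.11, 0.12 and −0.32, with no direction shared by all 3. In a limma fit to replicates 2 and 3 alone (2 arrays a genotype), which called 24.2% of all probe sets, EXPA8 fell by 1.96 (adjusted p = 1.06e-07) and EXPA4 rose by 0.68 (adjusted p = 0.00379), while EXPA9 at −0.16 (adjusted p = 0.468) and EXPA20 at −0.10 (adjusted p = 0.764) were not called. With limma's array weights, under which 22% of probe sets were called, EXPA8 fell by 1.94 (adjusted p = 3.93e-05) and EXPA4 rose by 0.64 (adjusted p = 0.0153). Leaving out only replicate 1 of cop1-4, with 2.34% of probe sets called, gave −2.23 for EXPA8 (limma adjusted p = 0.00729) and 0.22 for EXPA4 (adjusted p = 0.784). With the replicate number as a block neither was called, at adjusted p = 0.176 for EXPA8 and 0.561 for EXPA4, where 1.29% of all probe sets were called. Without replicate 1 of cop1-4BBX22-GFPox, which was its low array for EXPA4, the change of EXPA4 was 0.83 and was not called (limma adjusted p = 0.261), and over all single arrays left out it ranged from 0.11, without replicate 3 of cop1-4BBX22-GFPox, to 0.83. The corresponding range of EXPA8 was −2.23 to −0.98, the last of these without replicate 2 of cop1-4, and only the omission of replicate 1 of cop1-4 gave a call.

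**Figure D2:**
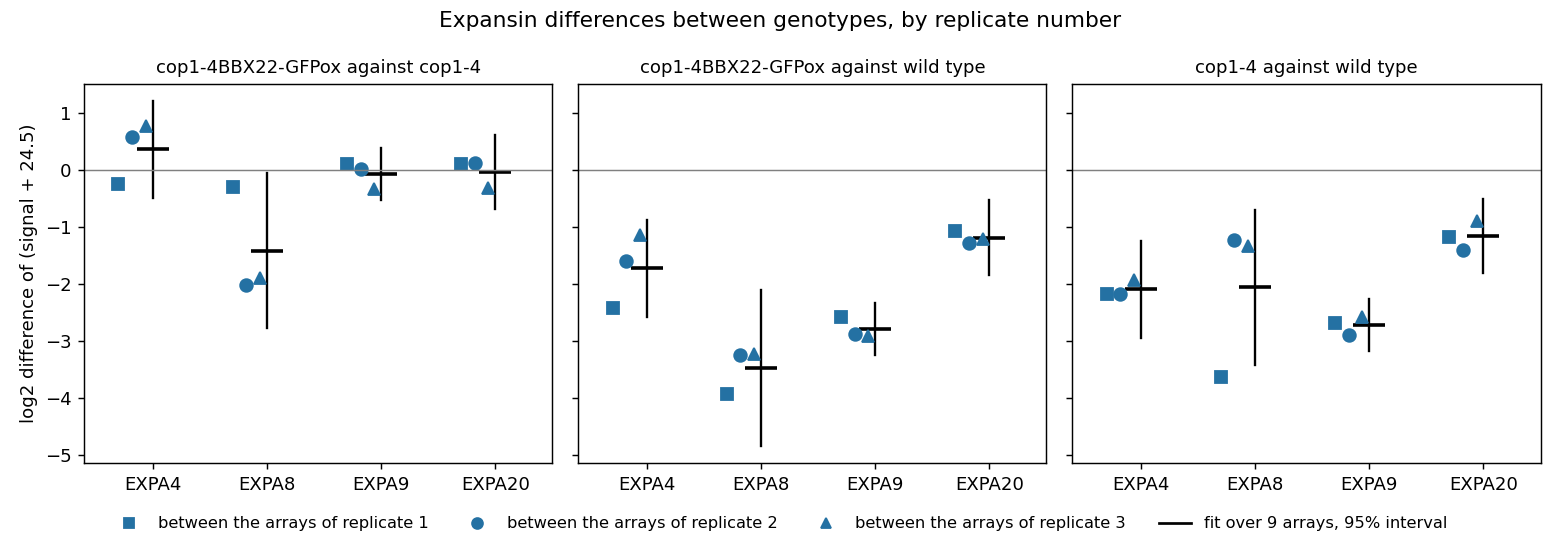
Log2 difference of (signal + 24.5) between genotypes for the 4 expansins, 1 panel per comparison, with symbols for the difference between arrays of the same replicate number and, in black, the limma estimate over 9 arrays with its 95% interval. In the left panel EXPA8 lies at −0.30 in replicate 1 and at −2.02 and −1.90 in replicates 2 and 3, and in the other panels all 12 symbols a panel lie below 0.

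Against wild type, all 4 expansins fell in cop1-4BBX22-GFPox. Limma called 4 of 4 as lower, where 11.7% of all probe sets were called in that direction. For the 4 genes the arrays did not overlap, as for 24.6% of all probe sets in the same direction. The wild type arrays are those on which the members were selected, so these values are not independent of the selection. EXPA8 fell by 3.47 on the log2 scale (SE 0.60, limma adjusted p = 0.0055), an 11.3-fold lower mean signal than in wild type. EXPA9 fell by 2.79 (SE 0.20, limma adjusted p = 0.000176), a 7.28-fold lower mean signal. EXPA4 fell by 1.72 (SE 0.38, limma adjusted p = 0.0137), a 3.11-fold lower mean signal. EXPA20 fell by 1.19 (SE 0.29, limma adjusted p = 0.0207), a 2.59-fold lower mean signal. By replicate number the differences were −3.93, −3.24 and −3.23 for EXPA8, −2.58, −2.87 and −2.92 for EXPA9, −2.42, −1.60 and −1.14 for EXPA4, and −1.07, −1.28 and −1.21 for EXPA20, lower in 3 of 3 each. In replicates 2 and 3 alone the log2 changes were −3.24, −2.89, −1.37 and −1.25 in that order. The EXPA4 call was lost without replicate 2 of wild type (adjusted p = 0.0543). The EXPA20 call was lost without replicate 2 (0.0762) or 3 (0.0679) of wild type and without replicate 3 of cop1-4BBX22-GFPox (adjusted p = 0.0641).

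The comparison of cop1-4 with wild type is the one the 4 genes were selected on, and its values are descriptive. All 4 were lower in cop1-4, with log2 changes of −2.72 for EXPA9 (SE 0.20, 6.85-fold lower by mean signal), −2.09 for EXPA4 (SE 0.38, 4.43-fold), −2.06 for EXPA8 (SE 0.60, 3.29-fold) and −1.16 for EXPA20 (SE 0.29, 2.49-fold). The selection fixed the direction here, so nothing is read from the count of 4 of 4 called lower (14.5% of all probe sets) or from that of 4 of 4 without overlap (25.7% of all probe sets). Over all probe sets the median log2 change was −0.11 with 1795 raised and 2305 lowered calls, whereas with arrays scaled to a common median it was 0.01 with 2294 raised and 1733 lowered calls. Under it the 4 genes stood at −2.60, −1.97, −1.94 and −1.05 in the order given. EXPA8 differed most by replicate number, at −3.63 in replicate 1 but −1.22 and −1.33 in replicates 2 and 3, and without replicate 1 of cop1-4 its log2 change was −1.24. EXPA9, at −2.69, −2.89 and −2.58, EXPA4, at −2.18, −2.18 and −1.92, and EXPA20, at −1.18, −1.40 and −0.89, varied less.

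The other expansins were examined for the same comparisons. The gene table held 34 expansin genes by symbol, of which 18 had a probe set of 1 gene, and 13 of these passed the filter. Apart from the 4 members and the root hair pair, 12 were measured and 7 tested. Of these 7, none rose and 3 fell both in cop1-4BBX22-GFPox and in cop1-4 against wild type, and the 3 were EXLB1, EXLA2 and EXPB1 each time. Among all probe sets 11.7% in cop1-4BBX22-GFPox and 14.5% in cop1-4 were called as lower. The median log2 change of the 7 was −0.69 in cop1-4BBX22-GFPox and −0.49 in cop1-4 against wild type, beside −0.11 for all probe sets in both.

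EXLA2 (AT4G38400), an expansin-like gene, had signals of 96.5, 178.2 and 199.1 in cop1-4BBX22-GFPox, 149.9, 369.6 and 323.4 in cop1-4, and 891.5, 1121.7 and 965.1 in wild type. It fell by 2.52 in cop1-4BBX22-GFPox (limma adjusted p = 0.00223) and by 1.81 in cop1-4 (limma adjusted p = 0.00747) against wild type. EXLB1 (AT4G17030), the other expansin-like gene called, had signals of 108.2, 94.6 and 61.6 in cop1-4BBX22-GFPox, 127.4, 234.1 and 170.2 in cop1-4, and 512.8, 443.6 and 437.3 in wild type. It fell by 2.14 in cop1-4BBX22-GFPox (limma adjusted p = 0.00124) and by 1.31 in cop1-4 (limma adjusted p = 0.00734) against wild type. In both genes every wild type array was above the 6 others.

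EXPB1 (AT2G20750), a beta-expansin, had signals of 79.2, 136.2 and 145.0 in cop1-4BBX22-GFPox, 32.6, 167.8 and 180.9 in cop1-4, and 520.9, 616.7 and 530.6 in wild type. It fell by 2.03 in cop1-4BBX22-GFPox (limma adjusted p = 0.0155) and by 2.14 in cop1-4 (limma adjusted p = 0.0117) against wild type, and the first of these calls was lost without either of 2 arrays (adjusted p up to 0.0559 without replicate 2 of wild type). The other 4 tested genes were not called in either comparison with wild type. Their log2 changes in cop1-4BBX22-GFPox and in cop1-4 were −0.69 and −0.49 for EXLA1, −0.50 and −0.39 for EXPA16, −0.40 and −0.42 for EXPA15 and 0.57 and 0.06 for EXPB3. In cop1-4BBX22-GFPox against cop1-4 limma called 0 of the 7, beside 0.301% of all probe sets, with EXLB1 at −0.83 (adjusted p = 0.347) and EXLA2 at −0.71 (adjusted p = 0.76). There, in replicates 2 and 3 alone, 1 rose and 2 fell, where 24.2% of all probe sets were called. In those replicates 1 rose and 5 fell in each mutant genotype against wild type, where 60.2% of all probe sets in cop1-4BBX22-GFPox and 62.4% in cop1-4 were called in either direction.

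For the root hair expansins, signals were 67.1, 351.9 and 260.4 for EXPA7 (AT1G12560) and 33.8, 596.9 and 505.9 for EXPA18 (AT1G62980) in cop1-4BBX22-GFPox, 132.0, 298.3 and 331.0 and 64.3, 750.3 and 573.8 in cop1-4, and 6.6, 206.4 and 179.5 and 40.4, 403.1 and 373.9 in wild type, with replicate 1 lowest each time. Over 9 arrays limma called neither in any comparison (adjusted p of 0.301 to 0.999), but both rose in cop1-4 against wild type with the replicate block. The block called 44.6% of all probe sets in either direction there, 3173 of the 15922 as higher. In replicates 2 and 3 alone both rose in each mutant genotype against wild type. That setting called 60.2% of all probe sets in cop1-4BBX22-GFPox and 62.4% in cop1-4 in either direction. As higher it called 4383 and 4577 of the 15922 in that order.

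**Figure D3:**
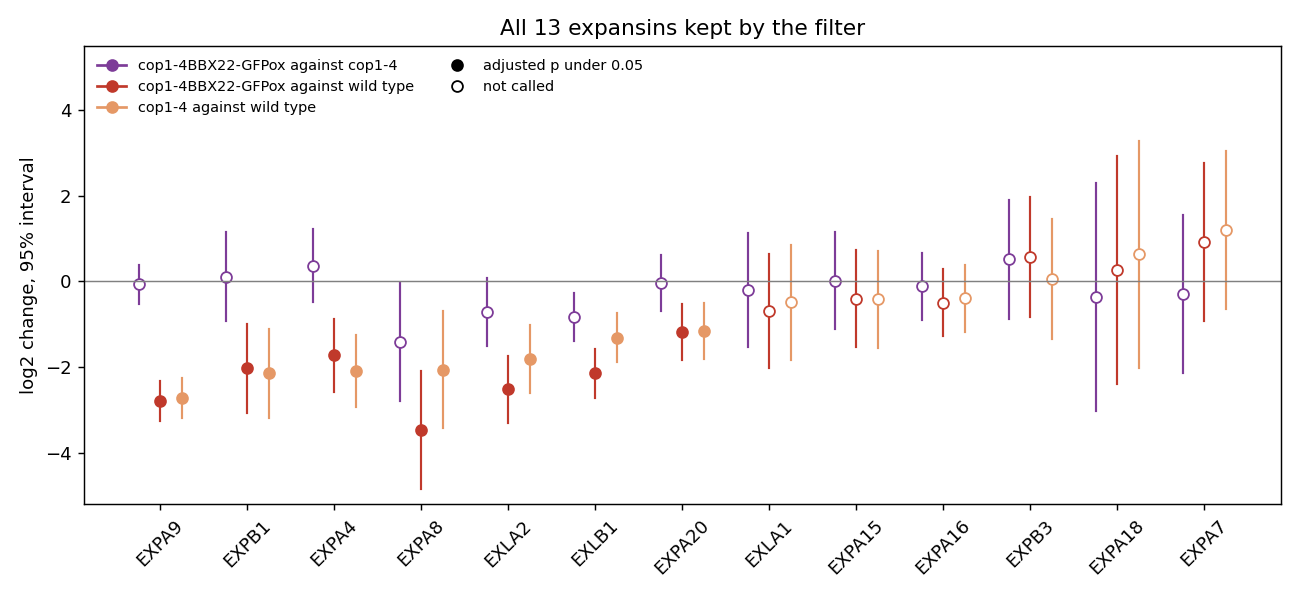
Log2 change with 95% interval for the 13 expansins kept by the filter, in 3 comparisons, with filled symbols for a limma adjusted p under 0.05. In both comparisons with wild type the 7 filled symbols belong to EXPA9, EXPB1, EXPA4, EXPA8, EXLA2, EXLB1 and EXPA20, and no symbol is filled for cop1-4BBX22-GFPox against cop1-4. For the 4 members the comparison of cop1-4 with wild type is descriptive.

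Other genes of wall loosening and elongation were fewer on the named part of the array. Of 8 tested xyloglucan endotransglucosylases, enzymes that cut and rejoin the xyloglucan that coats cellulose, limma called 0 in cop1-4 against wild type. The same fit called 25.8% of all probe sets in either direction. The largest change was that of XTH19 (AT4G30290) at −2.71 (limma adjusted p = 0.157, with −5.53 in replicate 1 and −1.31 in replicates 2 and 3). The replicate block called 4 of the 8 there, 1 higher and 3 lower, and replicates 2 and 3 alone called 7, 2 higher and 5 lower, beside 44.6% and 62.4% of all probe sets called under these settings. XTH33 (AT1G10550), at −0.87 the largest in cop1-4BBX22-GFPox against cop1-4 (adjusted p = 0.911), was the 1 of 8 that fell in cop1-4BBX22-GFPox against wild type, by 2.24 (limma adjusted p = 0.0256, a call that ended on leaving out any one of 4 arrays, with 0.0926 at most, when replicate 3 of wild type was left out). The main fit called 11.7% of all probe sets as lower in that comparison, so nothing is read from the 1 of 8. With the block 3 of the 8 fell in it, where 40.7% of all probe sets were called in either direction. Of the 15922 probe sets, 3468 were called as lower there.

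Of 2 tested genes of pectin modification, PME61 (AT3G59010), a pectin methylesterase, was called lower in both mutant genotypes. Its mean signal was 15.7 in cop1-4BBX22-GFPox, 68.7 in cop1-4 and 638.9 in wild type, with a log2 change of −2.95 in cop1-4 against wild type (limma adjusted p = 0.00149). Its mean in cop1-4BBX22-GFPox lay below the 24.5 added before the log, so the gene passed the filter through the other genotypes, and no size of change is given for cop1-4BBX22-GFPox. The other gene, ATPMEPCRB (AT4G02330), stood at −1.83 in cop1-4BBX22-GFPox (adjusted p = 0.146, block called) and −0.51 in cop1-4 (adjusted p = 0.68) against wild type, and at −1.33 in cop1-4BBX22-GFPox against cop1-4 (adjusted p = 0.882). In replicates 2 and 3 alone both pectin genes fell in cop1-4BBX22-GFPox against cop1-4, with ATPMEPCRB at −2.11. There 24.2% of all probe sets were called in either direction, 1833 of the 15922 as lower. COB (AT5G60920), which orients cellulose deposition, was the only tested gene of its list and stood at −0.09 and −0.03 against wild type (adjusted p = 0.823 and 0.943). Proton pumps of the plasma membrane, extensins and arabinogalactan proteins had no named probe set here.

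The list of hormone genes of elongation was chosen with earlier results of these data known, so its counts are descriptive. Of the 10 tested, 4 fell and none rose in each mutant genotype against wild type. Among all probe sets 11.7% in cop1-4BBX22-GFPox and 14.5% in cop1-4 were called as lower. The median log2 changes of the 10 were −0.92 in cop1-4BBX22-GFPox and −0.65 in cop1-4, beside −0.11 for all probe sets. The 2 of largest change in cop1-4 were IAA20 (AT2G46990), an Aux/IAA repressor of auxin response, at −2.67 (limma adjusted p = 0.00186), and WES1 (AT4G27260), also known as GH3.5, which conjugates auxin to amino acids, at −2.55 (limma adjusted p = 0.0042). The others called in cop1-4 were GH3.17 and the gibberellin receptor gene GID1B. In cop1-4BBX22-GFPox the calls were WES1 at −2.80, IAA20 at −2.79, GH3.3 at −2.14 (adjusted p = 0.025, a call that ended on leaving out any one of 4 arrays, with 0.082 at most, when replicate 3 of cop1-4BBX22-GFPox was left out) and IAA29 at −1.46 (adjusted p = 0.044, a call that ended on leaving out any one of 7 arrays, with 0.125 at most, when replicate 1 of wild type was left out). Between the mutant genotypes limma called 0 of the 10, beside 0.301% of all probe sets, and GH3.3 had the largest change at −1.49 (adjusted p = 0.496). In replicates 2 and 3 alone 3 of the 10 rose and 3 fell there, where 24.2% of all probe sets were called in either direction.

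Markers of other cell types and stages also differed from wild type, in both directions. These lists too were chosen with earlier results of these data known. Among greening genes, a list known from earlier results of these data, 4 of 5 rose in cop1-4BBX22-GFPox against wild type and none fell, while in cop1-4 4 rose and 1, LHCB4.2, fell, where 9.8% of all probe sets in cop1-4BBX22-GFPox and 11.3% in cop1-4 were called as higher. The fall of LHCB4.2 (adjusted p = 0.0457) was not called after leaving out any one of 7 arrays (0.15 without replicate 2 of cop1-4), nor was the rise of LHCB4.3 in cop1-4BBX22-GFPox (adjusted p = 0.0268) after leaving out any one of 5 (0.0996 without replicate 3 of cop1-4BBX22-GFPox). Their summed signal was 48206.9 to 68037.2 in cop1-4BBX22-GFPox, 39278.0 to 78142.3 in cop1-4 and 17699.4 to 21732.2 in wild type. The seed oil body gene OLEO3 (AT5G51210) lay at 35.9 to 98.9 in cop1-4BBX22-GFPox, 45.6 to 69.1 in cop1-4 and 1959.6 to 2322.5 in wild type, and fell in both. The 3 measured genes of the stomatal lineage summed to 276.3 to 340.4, 213.4 to 231.3 and 105.3 to 135.8 in the same order, and 1 of the 2 tested, FMA (FAMA, AT3G24140), rose in cop1-4BBX22-GFPox against wild type (limma adjusted p = 0.0259), a call absent when any one of 5 arrays was left out (0.077 without replicate 2 of cop1-4BBX22-GFPox). The replicate block called 40.7% of all 15922 probe sets in cop1-4BBX22-GFPox and 44.6% in cop1-4 against wild type, in either direction. As higher it called 3011 and 3173 in that order. Under it 2 of the 2 stomatal genes tested rose in cop1-4BBX22-GFPox and 1 in cop1-4 against wild type. The second of them, SPCH (AT5G53210), had a mean signal of 45.6 in wild type, below the filter, and passed it through the mutant genotypes. Nothing is therefore read from its rise. The block also called 1 of the 5 greening genes as higher in cop1-4BBX22-GFPox against cop1-4. There 1.29% of all probe sets were called in either direction, 165 of the 15922 as higher. The part of these cell types in the expansin levels was not tested, and in whole seedlings fewer expanding cells and less expansin RNA per cell cannot be told apart.

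The likeness of the members to each other over the 9 arrays, as Pearson's r of log2 values, was 0.926 for EXPA4 and EXPA20, 0.921 for EXPA9 and EXPA20, 0.906 for EXPA4 and EXPA9, 0.879 for EXPA8 and EXPA20, 0.852 for EXPA8 and EXPA9 and 0.786 for EXPA4 and EXPA8. The 6 arrays of replicates 2 and 3 gave 0.555 for EXPA4 and EXPA8 and 0.813 to 0.978 for the other pairs. The arrays share genotypes and replicate 1, so these are descriptions. EXPA4 and EXPA8 were the least alike in both sets of arrays.

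Among 8700 other genes tested, the 3 most like EXPA8 over the 9 arrays were AT1G05170 (r = 0.993), AT5G41900 (r = 0.991) and AT3G56200 (r = 0.991). Their mean signals had the order of EXPA8, for example 121.1 in cop1-4BBX22-GFPox, 217.7 in cop1-4 and 370.2 in wild type for AT1G05170. The genes most like EXPA9 were AT4G11610 (r = 0.997), AT1G16180 (r = 0.994) and AT1G54320 (r = 0.991), of which AT4G11610 had 106.2, 126.6 and 1799.3 in the same order. The genes most like EXPA4 were AT3G15890 (r = 0.989), AT5G17650 (r = 0.984) and AT3G22620 (r = 0.981), of which AT3G22620 had 941.0, 647.4 and 3597.2. The genes most like EXPA20 were AT3G10540 (r = 0.986), AT3G26370 (r = 0.983) and AT5G63410 (r = 0.981). Such values were common, since 44 genes for EXPA4, 72 for EXPA8, 155 for EXPA9 and 52 for EXPA20 had an r above 0.95. In replicates 2 and 3 alone the listed genes still had an r of 0.982 to 0.999, but most lost their rank. Only AT1G05170 was still among the 3 most like EXPA8, and none of the 3 was for the other members.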

How the data were processed

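The deposited table holds probe set intensities of 22746 probe sets on 9 single-colour arrays in linear units, and the submitters' processing notes name MAS5. Its version, its target intensity and the genome build were not given in the sources used here. After trimming 2% at either end, array means were 494 to 496, so the authors' values carry a common scaling. No further normalization was applied. Genes were named through the platform annotation (13513 probe sets with 1 gene, 503 with several, 8730 with none) and a TAIR10.1 gene table matched by 13436 of them. No coordinates or sequences are given, and a planned search of promoters for motifs was not run.

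Signals were transformed as log2(signal + 24.5), where 24.5 is the 20th percentile of the whole table and makes changes of dim genes look smaller. Probe sets with a mean log2 value at or above the 30th percentile (15922, of which 8701 had 1 gene) were fitted with limma 3.58.1 in R 4.3.3, with 1 mean per genotype and an intensity trend. P-values are two-sided with Benjamini-Hochberg adjustment over all of them, and a call is an adjusted p under 0.05. The steps were tested on simulated data. Exact permutation tests used scipy 1.17.1. The number of arrays limits the precision.

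Replicate numbers were taken to pair the samples. The reason was that deviations from the genotype means correlated at 0.375 to 0.806 in all 9 pairs of same-numbered arrays. However, 4 of the 9 arrays alone matched their own number best in both other genotypes. With means of 3 arrays, a departure of replicate 1 also gives replicates 2 and 3 similar deviations. The correlations therefore do not show that replicates 2 and 3 pair. The pairing was used for the differences by replicate number and in the replicate block. The main fit over 9 arrays and the exact permutation tests did not use it, so their standard errors, intervals and p-values ignore it. Alternatives were other offsets, normalizations, filters, the replicate block, replicate 1 as a batch, array weights and leaving out each array. The members and gene lists were chosen with earlier results of these data known. The text names the 4 members, every other tested expansin, for each other list up to 2 called genes of largest change in each direction or the largest where none is called, and the 3 genes most like each member. GH3.17, GID1B, GH3.3, IAA29, LHCB4.2, LHCB4.3, FMA and SPCH are named because they make up small counts, after their values were seen.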

Additional observations from a re-analysis of the deposited data

How the results depend on the processing

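For the 4 expansins, every alternative kept the negative sign in cop1-4BBX22-GFPox against wild type. That comparison uses the wild type arrays on which the genes were selected, so its sign and calls are not independent of the selection. In cop1-4BBX22-GFPox against wild type the number called was 4, except with the filter at the 50th percentile, which removed EXPA20 and left 3, and when single arrays were left out (2 to 4). For cop1-4 against wild type, on which the genes were selected, the counts (2 to 4 without single arrays) say nothing about stability. In cop1-4BBX22-GFPox against cop1-4 the number called was 0, but 2 (EXPA8 and EXPA4) in replicates 2 and 3 alone and with array weights, and 0 to 1 when single arrays were left out. There the change of EXPA4 ranged from 0.11 to 0.83 and that of EXPA8 from −2.23 to −0.98 without single arrays, the near-zero change of EXPA9 ranged from −0.17 without replicate 1 to 0.06 without replicate 3 of cop1-4, and that of EXPA20 was −0.25 without replicate 1 of cop1-4 but 0.04 without replicate 2 of cop1-4, 0.12 without replicate 3 of cop1-4 and 0.12 without replicate 1 of cop1-4BBX22-GFPox. The cause was not tested. Exact permutation tests could not go below 0.1.

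Counts over all probe sets moved more. For cop1-4BBX22-GFPox against cop1-4 they were 48 over 9 arrays, 27 with the filter at the 50th percentile (11373 probe sets tested), 206 with the replicate block, 432 with replicate 1 as a batch term, 3856 in replicates 2 and 3 alone, 3510 with array weights and 11 to 372 when single arrays were left out. For cop1-4BBX22-GFPox against wild type 3427 became 6479, 7250, 9590 and 9389 with the block, the batch term, replicates 2 and 3 alone and array weights in that order, and 1819 to 4820 without single arrays. For cop1-4 against wild type 4100 became 7096, 7910, 9932 and 9776, and 2214 to 5641. The replicate block changed no call of the 4 expansins.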

Other observations

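Replicate 1 had the lowest signal of its genotype for each of the 4 expansins in all 3 genotypes, a pattern held by 25.4% of the 15922 probe sets tested. It was noticed after the data were seen.

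The change of one expansin was also set against that of another within arrays, for cop1-4BBX22-GFPox against cop1-4 and all 6 pairs, after the opposite directions of EXPA4 and EXPA8 had been seen. The size of such a difference within an array has no meaning of its own, and only its shift between the genotypes is read. The log2 value of EXPA4 minus that of EXPA8 was 0.32, 0.86 and 0.93 in replicates 1 to 3 of cop1-4BBX22-GFPox, against 0.26, −1.74 and −1.75 in those of cop1-4. The difference of the changes was 1.78, with no overlap between the genotypes, though by a small margin in replicate 1. The exact two-sided permutation p was 0.1, the smallest that 3 arrays against 3 allow, and 0.48 after Benjamini-Hochberg adjustment over the 6 pairs, so this design could not pass the threshold. EXPA9 minus EXPA20 changed least, by −0.04 (exact p = 0.8).

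Of the 24 protein-coding genes within 3 places of a member in the TAIR10.1 gene table, 13 were tested, a view added after the data were seen. In cop1-4 against wild type 2 rose and 2 fell, and limma called the same 4 in cop1-4BBX22-GFPox against wild type. In either direction, 25.8% of all probe sets were called in cop1-4 and 21.5% in cop1-4BBX22-GFPox against wild type. Nothing is therefore read from the count. AT5G02230, 3 genes from EXPA9, had a mean signal of 253.8 ± 140.1 in cop1-4BBX22-GFPox, 256.0 ± 97.5 in cop1-4 and 2081.6 ± 163.7 in wild type (SD, n = 3 each), with log2 changes of −3.09 and −2.97 against wild type. AT4G38200, next to EXPA20, fell by 1.00 in cop1-4BBX22-GFPox and by 0.84 in cop1-4 against wild type. AT2G39670, 2 genes from EXPA4, rose by 1.56 and 1.53, and AT4G38225, 3 genes from EXPA20, rose by 1.24 and 1.08, in the same order. The 4 tested neighbours of EXPA8 were not called.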
